A study of Homo sapiens with 6 samples.

Results

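7SK RNA is a small nuclear RNA that holds the kinase P-TEFb in an inactive store. The data are described here for its gene, RN7SK, and for 7 protein genes: HEXIM1, HEXIM2, LARP7 and MEPCE, whose products bind 7SK RNA, and CDK9, CCNT1 and CCNT2, which encode P-TEFb. These 8 genes were found by symbol among the 60591 rows of the count table, and all 8 passed the filter on low counts. RN7SK was selected on its measured level, which was lower under both flow rates than in static cells, so its values against static are given as a description with no test. The protein genes were chosen by their known role.

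All groups were cells of MDA-MB-231, an established line of human breast cancer of the triple-negative kind, in a variant that homes to bone. Fluid was driven past them at 0 mL/min (static), 1 mL/min (low flow) or 15 mL/min (high flow), to model the fluid movement of loaded bone. There were 2 libraries of poly(A) RNA per condition, numbered as replicates in the labels, which do not say whether they were separate cultures. The p-values therefore measure only the spread between these libraries, and all results rest on 1 variant of 1 line.

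P-TEFb is a kinase, CDK9, paired with a cyclin T, and it phosphorylates RNA polymerase II, NELF and DSIF so that paused polymerases enter productive elongation. In the 7SK particle, MEPCE caps and protects the RNA at its 5′ end, LARP7 covers its 3′ end, and a HEXIM protein on the RNA inhibits CDK9. RNA polymerase III makes 7SK RNA from a promoter that lies outside the gene, as it does U6 RNA, and the transcript ends in a short run of U without a poly(A) tail.

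RN7SK lies on chromosome 6 of GRCh38, from 52995621 to 52995948 on the plus strand, as a single exon of 328 bases in GENCODE 29. Both ends of it are shown because they are the parts that the protein partners hold. VTRNA1-3, a vault RNA gene, is shown because it was a listed polymerase III transcript that passed the test as lower under both flow rates. Capitals mark GATC in the first sequence and the closing T or Ts in the others. The RN7SK model closes on 1 T, so it does not show the short run of U named above. All are DNA letters, 5′ to 3′, from the GENCODE 29 transcripts.
RN7SK, bases 1 to 90, chr6:52995621-52995710, plus strand: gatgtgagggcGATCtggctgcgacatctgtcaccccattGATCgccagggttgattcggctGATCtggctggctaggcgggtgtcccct
RN7SK, bases 261 to 328, chr6:52995881-52995948, plus strand: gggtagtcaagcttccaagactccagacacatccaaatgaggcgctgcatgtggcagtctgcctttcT
VTRNA1-3, chr5:140726158-140726246, plus strand: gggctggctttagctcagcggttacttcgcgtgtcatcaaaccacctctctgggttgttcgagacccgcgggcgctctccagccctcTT

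GATC, which reads the same on both strands, is known as part of the HEXIM1 binding site in the 5′ hairpin. It occurred 3 times in the whole of RN7SK, and all 3 were in the first 90 bases. Of 204409 GENCODE transcripts of at least that length, 20.3% held GATC in their first 90 bases and 0.215% held it there 3 times or more.

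Library totals ran from 17822642 to 53279537 counts and were lowest in the static libraries. By their column names, static and low flow libraries had 1 lane number and high flow libraries another, and the high flow names also have a different form. In comparisons with high flow, the lane, any difference in handling and the flow rate therefore cannot be told apart. The markers of the line were present (AXL at 478 to 580 CPM, which are counts scaled to library size). Of the receptors that the triple-negative kind is known to lack, ESR1 did not exceed 0.391 CPM and PGR was at 0 in every library, while ERBB2 was at 49.6 to 68.5 CPM. The epithelial marker EPCAM was at 2.69 to 4.26 CPM. The labels call the cells endothelial, but the defining endothelial markers CDH5 and VWF did not exceed 0.221 CPM in any library, and CLDN5 was at 0 in 5 of the 6. Summed CPM over all 8 endothelial markers was 81.9 to 97.2 in static, 101 to 107 in low flow and 112 to 113 in high flow libraries, mostly TIE1 and ROBO4. Of the 5 that could be tested, 1 rose in low flow, and 2 rose and 1 fell in high flow, beside 6.74% and 13.9% of all genes called. PECAM1 was higher in low flow (log2 fold change 0.70, edgeR adjusted p = 0.00778) and in high flow (0.55, adjusted p = 0.0139) than in static. Summed stromal and osteoblast markers were at 5.0 to 7.89 CPM and leukocyte markers at 259 to 341 CPM, nearly all from CD68, while the leukocyte gene PTPRC did not exceed 0.169 CPM. The part of these differences in the results below was not tested. In bulk RNA, fewer cells of a type and less RNA per cell cannot be told apart.

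RN7SK was counted 535 and 839 times in the static libraries, 283 and 156 times in the low flow libraries, and 131 and 184 times in the high flow libraries. Scaled to library size with TMM factors, this was 29.5 and 36.5 CPM in static, 6.21 and 3.24 CPM in low flow, and 3.07 and 3.45 CPM in high flow. Both static libraries lay above all 4 flow libraries, in raw counts as well as in CPM, although their totals were the smallest. The lower static library was 4.75 times the higher low flow library and 8.54 times the higher high flow library.

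The mean level of RN7SK was 33.0 ± 4.93 CPM (SD, n = 2) in static, 4.73 ± 2.10 CPM in low flow and 3.26 ± 0.275 CPM in high flow. The fitted log2 fold change was -2.81 for low flow against static, or 7.01-fold lower, and -3.34 for high flow against static, or 10.1-fold lower. Static and low flow libraries carry the same lane number in their column names, which name no sequencing run. Their totals differed, at 17822642 and 23544307 counts in static and 45174328 and 47067620 in low flow. A part of lane or depth in these values was not tested. Over 12 alternative analyses, the log2 fold change of RN7SK ran from -3.35 to -2.41 for low flow and from -3.48 to -3.17 for high flow.

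The flow rates could be tested against each other, since that contrast did not choose RN7SK. High flow against low flow gave a log2 fold change of -0.53 (SE 0.30, 95% interval -1.24 to 0.18, adjusted p = 0.628 by edgeR's quasi-likelihood test with Benjamini-Hochberg adjustment over all genes). The libraries overlapped: low flow replicate 1 was 1.92 times replicate 2, and replicate 2 lay between the high flow libraries. The value depended on which low flow library was kept. It was 0.01 (adjusted p = 0.991) without low flow replicate 1 and -0.92 (adjusted p = 0.000538) without low flow replicate 2.

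**Figure D1:**
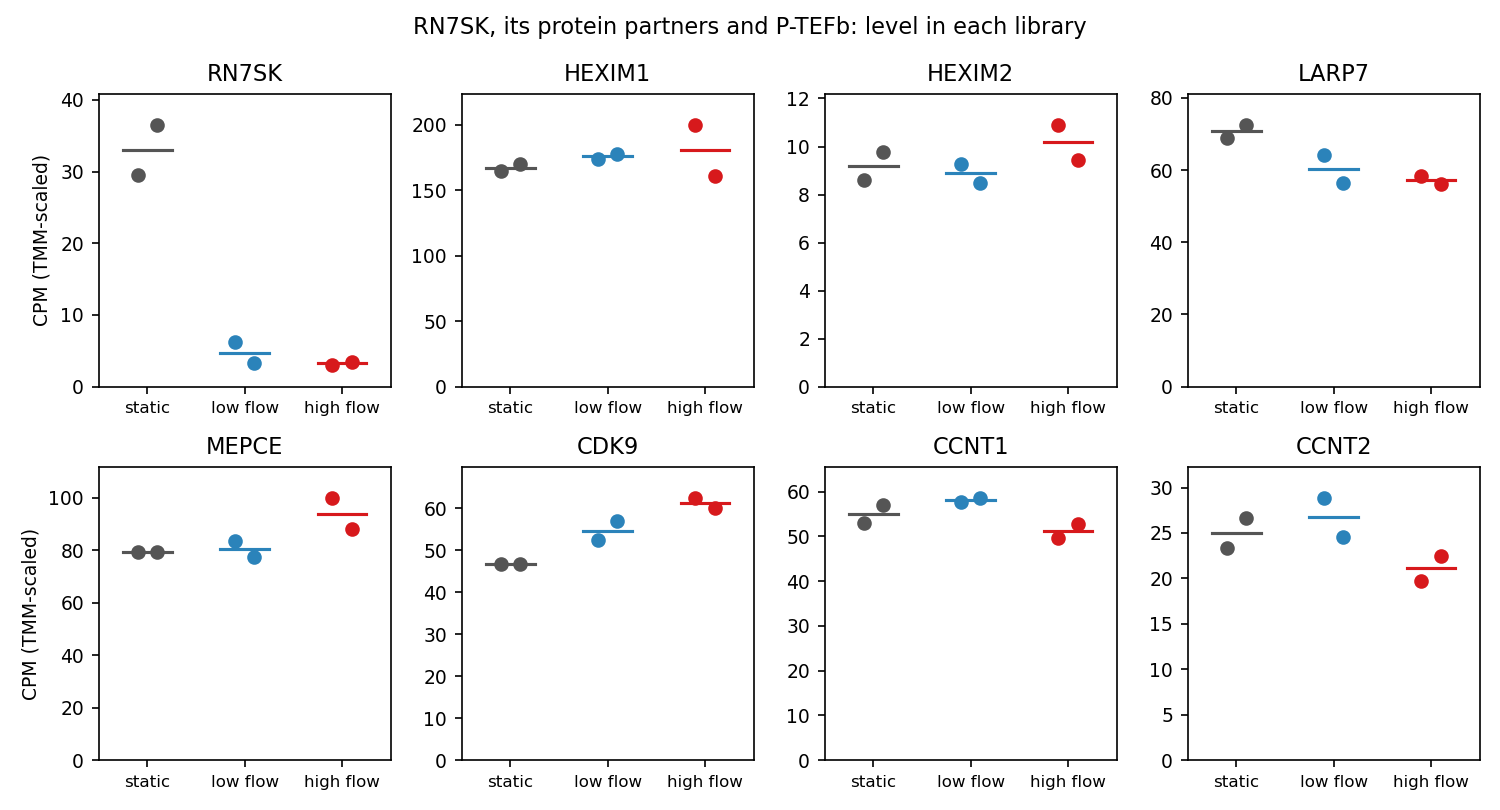
Level of each of the 8 genes in each library, in CPM on axes that start at 0; points are libraries and lines are the means of 2 libraries. RN7SK sits at 29.5 and 36.5 CPM in static and at or below 6.21 CPM under flow, while CDK9, the protein gene with the largest change, runs from 46.7 to 62.4 CPM.

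A second row, AL162581.1, held exactly the same count as RN7SK in all 6 libraries. The annotation used here does not give its position, and the values do not show which of the models the reads came from. Reads of RN7SK could also match its copies. Of 279 windows of 50 bases along RN7SK, 215 (77.1%) also occur exactly in transcripts of 13 other listed genes. Among these are the pseudogenes RN7SKP80, RN7SKP203 and RN7SKP255, and RF00100. A gene named RF00100 overlaps RN7SK on the same strand, so windows shared with it need not come from a copy elsewhere. The share without RF00100 was not counted. The sources used here do not say how reads with several matches were counted.

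Pseudogenes of RN7SK were summed as a comparison. Of 293 rows whose symbol starts with RN7SKP, 217 were at 0 in every library and 9 passed the filter on low counts. Their summed level was 7.22 and 7.95 CPM in static, 6.48 and 6.75 CPM in low flow, and 6.93 and 7.75 CPM in high flow. The most abundant were RN7SKP11 (mean 1.52 CPM over all libraries), RN7SKP16 (1.01), RN7SKP70 (0.819), RN7SKP173 (0.722), RN7SKP241 (0.427) and RN7SKP175 (0.330). With RN7SK and all these rows added together, the log2 ratio of mean CPM was -1.84 for low flow and -1.94 for high flow, against -2.80 and -3.34 for RN7SK alone. The summed pseudogene level stayed between 6.48 and 7.95 CPM while RN7SK ran from 3.07 to 36.5 CPM. Of the rows named here, only RN7SKP175 shares windows of 50 bases with RN7SK, so the sum does not describe the rows that share its sequence. The means of RN7SKP175 were 0.361 CPM in static, 0.297 in low flow and 0.331 in high flow. RN7SKP80, which also shares such windows, had means of 0.12, 0.266 and 0.347 CPM, on 2 to 17 counts per library.

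Neither gene of the proteins that inhibit CDK9 on 7SK RNA passed the test under flow. HEXIM1, the better known of the inhibitors (chromosome 17, 45148502 to 45152101, plus strand), was at 165 and 170 CPM in static, 174 and 178 CPM in low flow, and 200 and 161 CPM in high flow. The high flow libraries enclosed all the others. Its log2 fold change was 0.07 (adjusted p = 0.72) in low flow and 0.11 (95% interval -0.11 to 0.33, adjusted p = 0.528) in high flow. HEXIM2, its paralog on the same chromosome and strand (45160700 to 45170040), was at 8.60 and 9.78 CPM in static, 9.29 and 8.50 CPM in low flow, and 10.9 and 9.44 CPM in high flow. Its groups overlapped, with log2 fold changes of -0.05 (adjusted p = 0.881) and 0.14 (adjusted p = 0.58).

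LARP7 binds the 3′ end of 7SK RNA and stabilizes it (chromosome 4, 112636964 to 112657592, plus strand). Its mRNA was at 68.8 and 72.5 CPM in static, 64.1 and 56.5 CPM in low flow, and 58.4 and 56.0 CPM in high flow. Both static libraries were the highest of the 6. LARP7 fell in high flow against static by 0.31 on the log2 scale (SE 0.10, 95% interval -0.51 to -0.10), or 1.24-fold, with an adjusted p of 0.0481 in edgeR. The low flow value was -0.23 (95% interval -0.44 to -0.02), which did not pass (adjusted p = 0.17). The high flow call was close to the threshold: without the filter on low counts its adjusted p was 0.0974, with offsets for length and GC content the log2 fold change was -0.11 (adjusted p = 0.426), and without either static or either high flow library the adjusted p ran from 0.0738 to 0.249.

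MEPCE, the capping enzyme of 7SK RNA (chromosome 7, 100428790 to 100434126, plus strand), was at 79.3 CPM in both static libraries, 83.7 and 77.4 CPM in low flow, and 99.8 and 88.1 CPM in high flow. Both high flow libraries were above the other 4. The log2 fold change was 0.02 (adjusted p = 0.925) in low flow and 0.24 (95% interval 0.04 to 0.45) in high flow, where the adjusted p was 0.106.

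CDK9, the kinase of P-TEFb (chromosome 9, 127785679 to 127790787, plus strand), was at 46.8 and 46.7 CPM in static, 52.6 and 56.9 CPM in low flow, and 62.4 and 60.2 CPM in high flow. The groups did not overlap at any step. CDK9 rose in high flow against static by a log2 fold change of 0.39 (SE 0.10, 95% interval 0.19 to 0.60), or 1.31-fold, with an edgeR adjusted p of 0.0138. In low flow it was 0.23 (95% interval 0.02 to 0.43, adjusted p = 0.164), and high flow against low flow gave 0.16 (adjusted p = 0.608). The high flow call was lost without static replicate 2 (adjusted p = 0.0958), without high flow replicate 1 (0.144) or without high flow replicate 2 (0.0717).

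The cyclins of P-TEFb lay on either side of their static levels. CCNT1, the cyclin of most P-TEFb (chromosome 12, 48688458 to 48716998, minus strand), was at 53.1 and 57.0 CPM in static, 57.6 and 58.5 CPM in low flow, and 49.7 and 52.8 CPM in high flow. Its groups did not overlap, but they lay close together. The log2 fold change against static was 0.08 (adjusted p = 0.688) in low flow and -0.10 (adjusted p = 0.511) in high flow. CCNT2 (chromosome 2, 134918235 to 134959342, plus strand) was at 23.3 and 26.6 CPM in static, 28.8 and 24.6 CPM in low flow, and 19.7 and 22.5 CPM in high flow. The high flow libraries were the lowest for both cyclins. For CCNT2 the log2 fold change was 0.09 (adjusted p = 0.694) in low flow and -0.24 (95% interval -0.50 to 0.01, adjusted p = 0.197) in high flow.

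**Figure D2:**
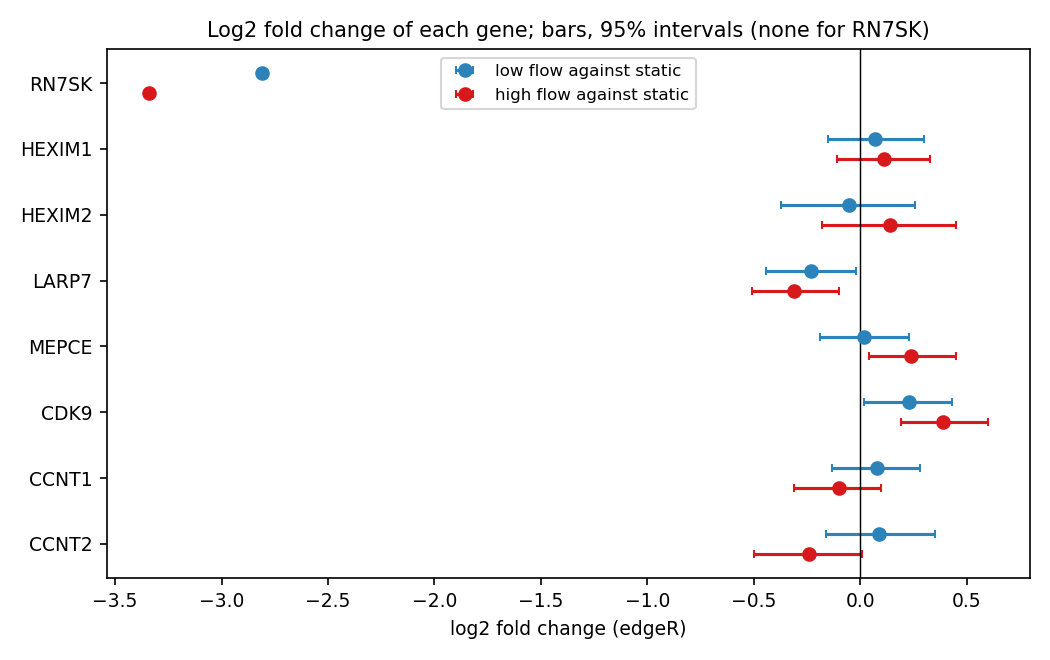
Log2 fold change against static for low flow (blue) and high flow (red); bars are 95% intervals of the edgeR fit, and RN7SK has none because it was not tested against static. RN7SK lies at -2.81 and -3.34, while the 7 protein genes lie between -0.31 and 0.39.

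Over the 7 protein genes, log2 fold changes ran from -0.23 to 0.23 in low flow (median 0.07) and from -0.31 to 0.39 in high flow (median 0.11), beside medians of 0.01 and 0.00 over all genes tested. In low flow, 0 of the 7 passed edgeR's quasi-likelihood test, 2 had an unadjusted p under 0.05, and 0 passed in DESeq2. Of all 20676 genes tested, 6.74% passed in that comparison, 3.25% higher and 3.49% lower. In high flow, CDK9 was higher and LARP7 lower, which is 2 of 7, and 3 had an unadjusted p under 0.05. Of all genes, 13.9% passed there, 7.49% higher and 6.43% lower. In high flow against low flow, 0 of all 8 genes passed in edgeR, 2 had an unadjusted p under 0.05 and 0 passed in DESeq2, beside 0.334% of all genes (0.242% higher and 0.0919% lower). Among the 7 protein genes the lowest value there was that of CCNT2, at -0.34 (95% interval -0.59 to -0.09, adjusted p = 0.365).

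Levels of different genes were compared per kilobase of exon. In static cells the order in CPM per kilobase was RN7SK (101), HEXIM1 (46.5), MEPCE (23.2), LARP7 (17.3), CDK9 (15.6), CCNT1 (7.46), HEXIM2 (4.51) and CCNT2 (2.75). In low flow RN7SK, at 14.4 CPM per kilobase, came next below LARP7 at 14.8, and the low flow SD of RN7SK (6.40) spans that difference. In high flow RN7SK, at 9.94, stood between LARP7 at 14.0 and CCNT1 at 6.94. The order of the protein genes was otherwise kept, except that CDK9 (18.2 in low flow, 20.4 in high flow) stood above LARP7 under both flow rates. HEXIM1 was 9.67 to 11.9 times HEXIM2 per kilobase across the 6 libraries, and CCNT1 was 2.46 to 3.10 times CCNT2. Because the libraries were made from poly(A) RNA, the level of RN7SK in them is not its abundance in the cell.

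Other genes lie across these loci. AC138150.1, which runs opposite to both HEXIM genes, did not exceed 0.727 CPM, and MIR3960 and MIR2861, on the strand of CDK9, did not exceed 0.468 CPM. Opposite LARP7, ZGRF1 was at 11.5 to 21.7 CPM. Opposite MEPCE, ZCWPW1 was at 4.32 to 5.75 CPM, and opposite CCNT2, CCNT2-AS1 was at 0.894 to 1.54 CPM. The kit marks strand, but the sources used here do not say whether counting used it.

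RNA polymerase III and the factors that start it at promoters like that of RN7SK formed a list of 23 genes. In low flow 4 fell and 0 rose (median log2 fold change -0.14), and in high flow 4 fell (median -0.08), beside 3.49% and 6.43% of all genes called lower. POLR3G, a subunit found in one form of the polymerase, was at 30.5 and 39.3 CPM in static, 23.2 and 18.8 CPM in low flow, and 17.0 and 19.1 CPM in high flow. It fell 1.67-fold in low flow (log2 fold change -0.74, adjusted p = 0.00674) and 1.94-fold in high flow (-0.95, SE 0.14, adjusted p = 0.0005). All 4 flow libraries were below both static libraries.

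SNAPC1 encodes a subunit of the complex that binds the upstream element of the U6 and 7SK promoters. It was at 133 and 151 CPM in static, 113 and 83.5 CPM in low flow, and 84.1 and 88.7 CPM in high flow, with log2 fold changes of -0.54 (adjusted p = 0.0224) and -0.72 (adjusted p = 0.00278). SNAPC5, another subunit of that complex, had log2 fold changes of -0.46 (adjusted p = 0.0485) and -0.60 (adjusted p = 0.00831). SSB, which encodes La, a protein that binds the closing U run of new polymerase III transcripts, was at 130 and 144 CPM in static, 107 and 97.4 CPM in low flow, and 97.6 and 98.6 CPM in high flow. Its log2 fold changes were -0.42 (adjusted p = 0.0166) and -0.48 (adjusted p = 0.00435). For each of these 3 genes every flow library was below both static libraries.

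Short RNAs without a poly(A) tail were listed as a comparison for RN7SK. Of 36 listed rows in the table, 20 passed the filter. In low flow 2 fell and 0 rose, and in high flow 4 fell and 0 rose, beside 3.49% and 6.43% of all genes called lower. RNU6ATAC and RNU6-8 passed the filter on low counts through the static libraries alone, so the counts and levels of this list are a description. VTRNA1-3 was counted 31 and 45 times in static, 31 and 18 times in low flow, and 9 and 11 times in high flow. In CPM it was 1.71 and 1.96, then 0.681 and 0.374, then 0.211 and 0.207, without overlap at any step. It fell 3.48-fold in low flow (log2 fold change -1.80, adjusted p = 0.0105) and 8.70-fold in high flow (-3.12, adjusted p = 0.000242). None of the 40 windows of 50 bases along VTRNA1-3 occurs in a transcript of another gene.

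RNU6-9 was counted 25 and 45 times in static, 19 and 17 times in low flow, and 20 and 19 times in high flow, or 1.38 and 1.96, 0.417 and 0.353, and 0.468 and 0.357 CPM. It fell 4.34-fold in low flow (log2 fold change -2.12, adjusted p = 0.00507) and 4.08-fold in high flow (-2.03, adjusted p = 0.00261). Its sequence is not its own: all 58 windows of 50 bases occur in transcripts of 33 other genes, and 2 of the 4 other U6 genes listed are identical to it. The U6 gene RNU6-2 fell in high flow (-1.18, adjusted p = 0.0422). That call was lost in DESeq2, with a replicate block and with length and GC offsets, among other alternatives. RNU6ATAC, the U6 of the minor spliceosome, was also called there, but it reached the filter's level of 0.224 CPM in the static libraries alone. It was counted 6 and 16 times in static, 8 and 7 times in low flow, and 6 and 4 times in high flow. DESeq2 gave no adjusted p for VTRNA1-3, RNU6-9 and RNU6ATAC against static, because of their low counts.

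The most abundant of these RNAs did not pass the test. RN7SL2, a gene of the signal recognition particle RNA, was at 50.6 and 25.4 CPM in static, 25.5 and 30.6 CPM in low flow, and 30.8 and 69.2 CPM in high flow. RN7SL1, its near copy, was at 29.4 and 16.6, 13.6 and 15.1, and 13.9 and 33.1 CPM. Both varied about as much between replicates as between groups, and their adjusted p against static was 0.6 or more. Of the next most abundant, SNORD3A had a mean of 2.49 CPM over all libraries, RPPH1 1.63, BCYRN1 1.30 and RNU7-1 1.19, and none of the 4 passed in either comparison.

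The rows were also summed by promoter, whether or not they passed the filter, in groups made after the values were seen. The 11 rows that polymerase III makes from promoters outside the gene, RN7SK not included, summed to 7.61 and 9.52 CPM in static, 3.84 and 2.93 CPM in low flow, and 4.54 and 3.27 CPM in high flow, and both static libraries were above all flow libraries. The 8 rows that polymerase III makes from promoters inside the gene, mostly RN7SL1 and RN7SL2, summed to 84.5 and 46.1, 41.6 and 48.3, and 46.5 and 105 CPM, and there the groups overlapped. The 17 rows made by polymerase II summed to 8.21 and 9.43, 7.51 and 8.56, and 8.14 and 8.73 CPM, also with overlap. Against static, 0 of the 8 tested passed in edgeR in low flow or high flow, beside 6.74% and 13.9% of all genes. In DESeq2, 0 of the 20 tested RNAs of the list passed against static, but rows without an adjusted p could not pass. VTRNA1-3, RNU6-9 and RNU6ATAC were among those rows, so the 0 says nothing of them. Many of the U6 rows share their sequence, so they are not separate measurements.

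**Figure D3:**
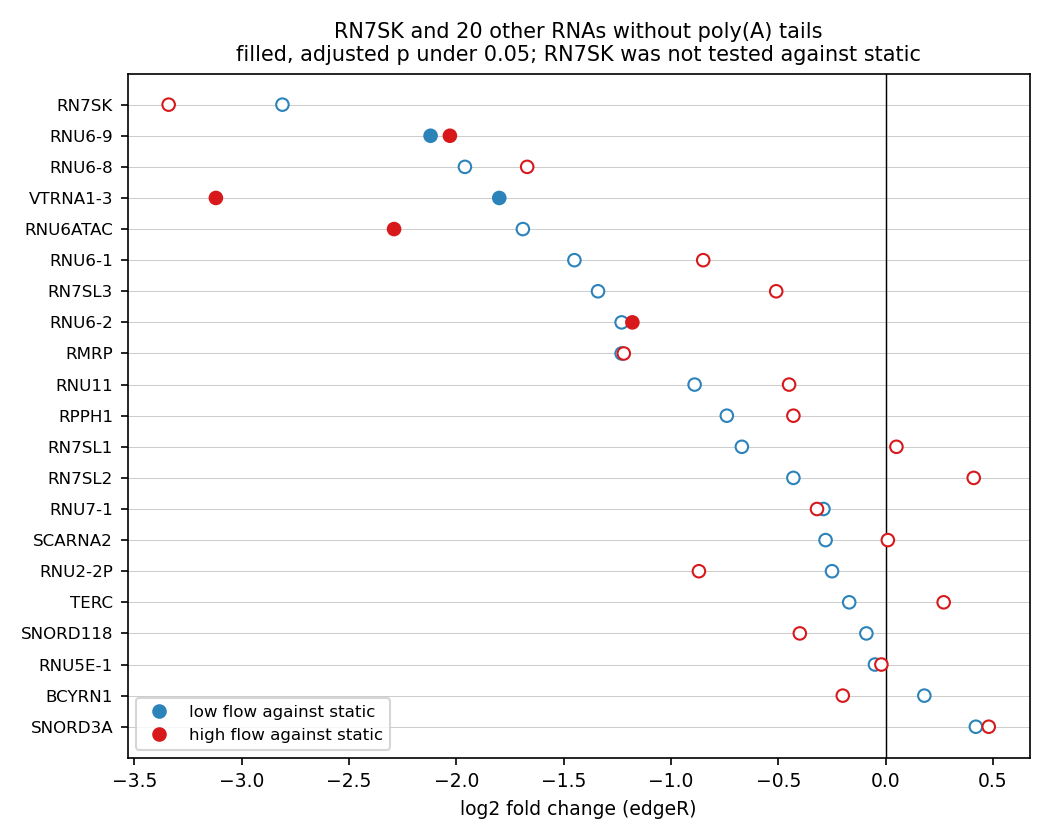
Log2 fold change against static of RN7SK and the 20 tested RNAs without poly(A) tails, for low flow (blue) and high flow (red); filled points have an adjusted p under 0.05, and RN7SK, drawn open, was not tested. RNU6ATAC and RNU6-8 passed the filter on low counts through the static libraries alone. U6 genes and VTRNA1-3 lie to the left with RN7SK. Of the 8 polymerase II transcripts, 7 lie below 0 and 1 above in low flow (median -0.21). In high flow 5 lie below 0 and 3 above (median -0.17). SNORD118, RNU5E-1 and SNORD3A are among those nearer to 0, but RNU11 had means of 1.41 CPM in static and 0.775 CPM in low flow.

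Proteins known to bind 7SK RNA or to free or recruit P-TEFb made up a list of 18 genes. In low flow 3 fell and 0 rose (median log2 fold change -0.27), and in high flow 5 fell and 0 rose (median -0.19), beside 3.49% and 6.43% of all genes called lower. The phosphatase PPM1G, which releases P-TEFb from the 7SK particle, was at 330 and 389 CPM in static, 282 and 218 CPM in low flow, and 279 and 247 CPM in high flow. Its log2 fold changes were -0.53 (adjusted p = 0.0225) and -0.45 (adjusted p = 0.0268). HNRNPR, a protein that binds 7SK RNA freed of P-TEFb, fell in both comparisons (-0.39, adjusted p = 0.0342, and -0.44, adjusted p = 0.0122). JMJD6 fell in low flow (-0.47, adjusted p = 0.0143). In high flow the helicase DDX21 fell by 0.42 on the log2 scale (adjusted p = 0.018) and HNRNPA2B1 by 0.39 (adjusted p = 0.0237). NUFIP1, named after its value was seen, fell by 0.45 (adjusted p = 0.0381).

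The super elongation complex carries active P-TEFb to genes, and the list drawn up around it held 12 genes. Without AFF2, 1 of them rose in low flow and 2 in high flow, and 0 fell, beside 3.25% and 7.49% of all genes called higher. MLLT6 rose in both (0.35, adjusted p = 0.0468, and 0.39, adjusted p = 0.018). It is better known as a partner of the histone methyltransferase DOT1L than as part of this complex. Apart from AFF2, no other gene of the list was called in low flow. In high flow the only other one was ELL, an elongation factor (0.32, adjusted p = 0.041). AFF2, a scaffold of the complex, passed the filter on low counts through the flow libraries alone and is described without its test. It had 0 counts in both static libraries and means of 0.224 CPM in low flow and 0.279 CPM in high flow. Against 3 counts over both static libraries (0.0729 CPM) it was at least 3.0-fold higher in low flow and at least 3.8-fold higher in high flow. The more abundant scaffolds did not pass: AFF1 had log2 fold changes of 0.17 and 0.22, and AFF4 0.07 and -0.04.

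NELF, DSIF and Gdown1, which hold polymerase II in the pause that P-TEFb ends, made up a list of 7 genes. In edgeR 0 passed in low flow and 0 in high flow, beside 6.74% and 13.9% of all genes. At an unadjusted p under 0.05 the counts were 0 and 1, and in DESeq2 0 and 0. The lowest and highest values were those of NELFA (-0.19) and NELFB (0.12) in low flow, and of POLR2M (-0.12) and NELFB (0.28, adjusted p = 0.0891) in high flow.

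Of 11 elongation factors that act after P-TEFb, LEO1, a subunit of the PAF1 complex, fell in low flow (-0.44, adjusted p = 0.0159) and in high flow (-0.37, adjusted p = 0.02). TCEA2, a relative of the factor that restarts backtracked polymerase, rose in high flow (0.44, adjusted p = 0.018). No other gene of that list passed against static. For comparison with this list and the next, 6.74% of all genes passed in low flow and 13.9% in high flow. Of 9 genes of the other kinases of polymerase II transcription, MNAT1 fell in both comparisons (-0.35, adjusted p = 0.0434, and -0.45, adjusted p = 0.00701). CDK7, the kinase that MNAT1 assembles with, fell in high flow (-0.36, adjusted p = 0.0328). The CDK7 call was lost in 5 alternatives, among them length and GC offsets. CDK9 thus moved the opposite way to CDK7 in high flow, although the difference between them was not tested.

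mRNAs that are lost soon after CDK9 is inhibited formed a list of 14 genes. In low flow 2 fell and 0 rose (median log2 fold change -0.07), and in high flow 1 fell and 1 rose (median 0.16). Of all genes, 6.74% were called in low flow and 13.9% in high flow, so the high flow count of 2 in 14 is near that share. EGR1, an immediate early transcription factor, was at 764 and 796 CPM in static, 437 and 284 CPM in low flow, and 402 and 325 CPM in high flow. It fell by 1.11 on the log2 scale in low flow (adjusted p = 0.0261) and by 1.10 in high flow (adjusted p = 0.0159). MYC was at 52.0 and 50.8 CPM in static, 42.6 and 35.3 CPM in low flow, and 68.7 and 59.9 CPM in high flow. It was below static in low flow (-0.40, adjusted p = 0.0383), a call lost in 6 alternatives, among them the fit of 4 libraries. Its level was 1.65-fold higher in high flow than in low flow (0.72, adjusted p = 0.00427), although that call was lost without high flow replicate 1. MCL1, an inhibitor of apoptosis, rose in high flow (0.34, adjusted p = 0.0286). MYC was the only gene of the 8 lists that passed between the flow rates.

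**Figure D4:**
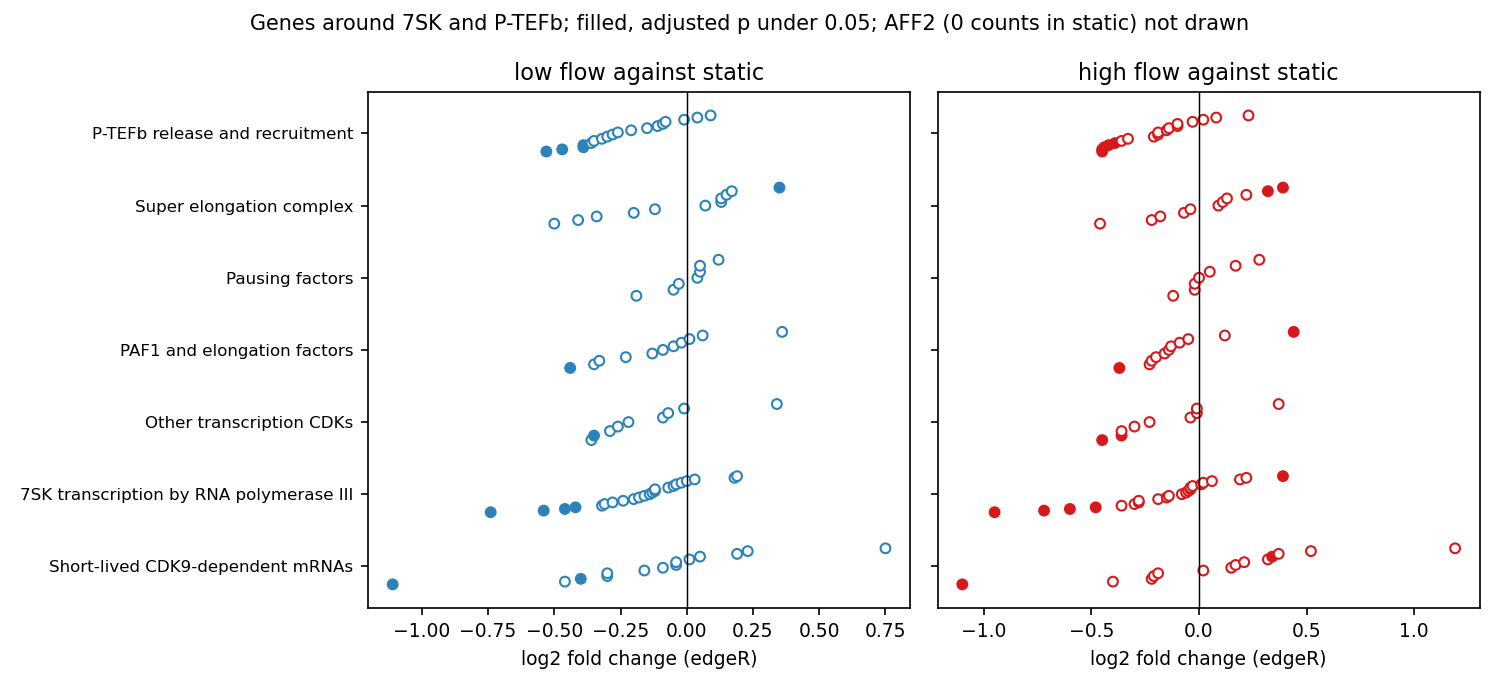
Log2 fold change of each gene of 7 lists around 7SK RNA and P-TEFb, for low flow (left) and high flow (right) against static; filled points have an adjusted p under 0.05, and AFF2, with 0 counts in static, is not drawn. The filled points of the P-TEFb release list all lie left of 0, and no pausing factor is filled.

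Over the 8 lists, 15 of 113 tested genes (13.3%) were called in low flow and 23 (20.4%) in high flow, beside 6.74% and 13.9% of all genes. These counts include AFF2 and, in high flow, RNU6ATAC. Most calls were lost without static replicate 2: 0 list genes were then called in low flow and 2 in high flow, POLR3G and VTRNA1-3. Without low flow replicate 1, the low flow count was 35. Without high flow replicate 1, 4 of the high flow calls were left: those 2, RNU6-9 and EGR1. In high flow against static, POLR3G passed in every alternative analysis, and VTRNA1-3 in every one that gave it an adjusted p. DESeq2 gave no adjusted p for RNU6-9 and VTRNA1-3 against static, so it is not counted for them here. In low flow, the calls of POLR3G and RNU6-9 were lost only without static replicate 2. EGR1 was lost there in 2 alternatives, without either static library, and LEO1, SSB and VTRNA1-3 in 2, without static replicate 2 or low flow replicate 2. At the other end, SNAPC5 in low flow was lost in 9 alternatives, MLLT6 and MNAT1 in 8. No call of the lists changed direction in an alternative.

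The genes most like RN7SK in log2 CPM over the 6 libraries, by Pearson's r among 12667 genes, were AL162581.1 (1.00), ZNF184 (0.9992), AL022311.1 (0.9989), CCAR1 (0.9987) and CBWD1 (0.9975). A total of 459 genes had an r over 0.95. Their likeness is in shape and not in size: ZNF184, a zinc finger gene, was 1.55-fold lower in low flow and 1.67-fold lower in high flow, and AL022311.1 was 1.13-fold and 1.15-fold lower. For HEXIM1 the closest were ZNF362 (0.993), EPAS1 (0.9824), METRNL (0.9778), IL4R (0.9613) and AL096870.2 (0.9562), and 7 genes had an r over 0.95. These 5 shared with HEXIM1 a high value in high flow replicate 1. The correlations are descriptions over 6 libraries that share lanes and depth differences.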

How the data were processed

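RNA was measured in 6 libraries, 2 each for static, low flow and high flow. Cells were lysed with TRIzol and a KAPA kit that keeps strand made the poly(A) libraries, per the labels' protocols. The authors deposited raw read counts per gene symbol; STAR, featureCounts and hg38 are named, without versions, in the submitters' processing notes, with an annotation not given in the sources used here. The other steps were computed here: all 6 libraries were fitted together with edgeR 4.0.16 in R 4.3.3 (quasi-likelihood, robust, TMM, 3 residual degrees of freedom) on the 20676 genes left by the default filter with a minimum count of 10. Tests were two-sided, with Benjamini-Hochberg adjustment over all genes per comparison and a threshold of 0.05. Standard errors came from the test statistic. CPM are counts scaled with TMM factors. Positions, exon lengths and sequences came from GENCODE 29.

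The 8 genes and the lists were chosen with earlier results of these data known. The text names the 8 genes, up to 4 called members of each list by p (or its highest and lowest value), the 6 most abundant RN7SKP rows and RNAs without poly(A) tails, and the 5 genes most correlated with RN7SK and with HEXIM1. Alternatives were RLE scaling, no filter, DESeq2 1.42.0, a fit of 4 libraries, a replicate block, length and GC offsets, and each library left out. The fit was tested on simulated counts. Replicates differed beyond sampling noise, with a chi-square per degree of freedom of 12.2 to 30.2. Some items are not reported here.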

Additional observations from a re-analysis of the deposited data

How the results depend on the processing

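Depth was lowest in the static libraries, and the RNAs without poly(A) tails rest on few counts. With 2 libraries per condition, the number of genes called depends on single libraries: leaving out 1 library at a time gave 95 to 3111 genes for low flow against static (1394 with all libraries), 300 to 4004 for high flow against static (2878) and 4 to 294 for high flow against low flow (69). Over the 8 lists the corresponding counts were 0 to 35 (15), 2 to 32 (23) and 0 to 4 (1). Without the filter on low counts, 2260 genes were called in low flow against static and 241 in high flow against low flow. With only the 4 libraries compared, these were 604 and 36. DESeq2 called 114 and the length and GC offsets 38 in high flow against low flow.

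The replicate numbers did not pair the libraries: deviations of libraries with the same number correlated at -0.294 between static and low flow, 0.0915 between static and high flow and 0.0424 between low and high flow, over 12658 genes. With a replicate block, 907, 2266 and 55 genes were called in the 3 comparisons, and LARP7 in high flow against static had an adjusted p of 0.0624.

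Small values changed sign. With length and GC offsets, MEPCE in low flow was -0.02, HEXIM2 in high flow -0.01, and LARP7 in high flow against low flow 0.06. With 1 library left out, the low flow values ran from -0.14 to 0.05 for HEXIM2, -0.03 to 0.08 for MEPCE and -0.02 to 0.20 for CCNT2. HEXIM1 in high flow ran from -0.05 to 0.25. In high flow against low flow, RN7SK ran from -0.92 to 0.01, HEXIM1 from -0.13 to 0.18 and LARP7 from -0.16 to 0.02. None of these passed, except RN7SK without low flow replicate 2. The cause was not tested. Summing RN7SK with the RN7SKP rows, which gave -1.84 and -1.94, was chosen after seeing the data.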
